A study of Arabidopsis thaliana with 9 samples.

Results

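Histones package DNA into nucleosomes, and this report follows the transcripts of Arabidopsis thaliana histone genes, of histone variants and of the CAF-1 subunits FAS1 and FAS2. The members were taken by locus code from a list of 43 loci, of which 37 had a row among the 20777 loci of the expression table. The 6 loci without a row were histone H4 genes, so only 2 of 8 H4 genes were measured, while every other class was measured in full. The 37 loci comprised 16 replication-dependent genes (2 H4, 5 H3.1, 4 H2A and 5 H2B), 12 variant genes (3 H2A.Z, 2 H2A.X, 3 H2A.W, 3 H3.3 and 1 CENH3), 4 H2B genes kept apart from the replication-dependent set, 3 linker histone H1 genes and the 2 CAF-1 genes.

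RNA came from the vegetative part of Col-0 seedlings at growth stage 1.04, raised on MS medium at 22 °C with 16 h of light and 8 h of dark, and was hybridised to Affymetrix ATH1 arrays. The groups were shr-5, a mutant of the GRAS transcription factor gene SHORT-ROOT (SHR), scr-3, a mutant of the GRAS gene SCARECROW (SCR), and the wild type (WT), with 3 biological repeats each. Each mutation was represented by 1 allele. By its title, the series concerns the part of both genes in the growth of leaves and in the S phase of their cells. Values are log2 expression after RMA, 1 value per locus and array, and all differences below are in log2 units.

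Replication-dependent histone genes are transcribed mainly in S phase, when new DNA has to be packaged, so their transcripts are common markers of replicating cells. CAF-1 places H3.1 and H4 on newly replicated DNA, whereas H3.3 is exchanged outside replication and CENH3 marks centromeres. Among H2A variants, H2A.Z is known for its place at gene starts and its role in gene responsiveness, H2A.X for its phosphorylation at DNA breaks, and H2A.W for heterochromatin. In young leaves the proliferating tissue is the main site of S-phase transcription, and endoreduplicating cells contribute as well.

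The SHR value was 4.70, 4.73 and 4.89 in shr-5 and 6.40, 6.23 and 6.19 in scr-3, against 6.61, 6.57 and 6.81 in WT, so the shr-5 arrays were apart from all others. The SCR value was 7.60, 7.43 and 7.35 in shr-5 and 7.63, 7.44 and 7.13 in scr-3, against 7.96, 7.99 and 7.94 in WT, which does not tell scr-3 from shr-5. Across loci, which are not independent replicates, shr-5 replicate 3 correlated with the other arrays at r = 0.970 to 0.979, and the other 8 arrays with one another at r = 0.983 to 0.997. Calls of named genes that change without that array are given with and without it. As tissue check, the leaf carbonic anhydrase gene CA1 was the only 1 of 4 shoot markers measured, and its median lay at percentile 99.8 of all loci in shr-5, 99.8 in scr-3 and 99.9 in WT. The floral genes AP1, AG and AP3 lay between 3.26 and 4.35, near the lowest value in the table (2.90). Of 8 root markers measured, the root and hypocotyl beta-glucosidase gene PYK10 was bright.

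In shr-5 against WT, histone genes fell across several classes. Of the 37 loci 15 passed the threshold (limma adjusted p under 0.05 over all loci), all of them lower, against a background of 3.79% lower and 4.35% higher calls among all loci. By set, 9 of 16 replication-dependent genes, 4 of 12 variant genes and 2 of the 4 other H2B genes fell, and none of the H1 or CAF-1 genes passed. At an unadjusted p under 0.05 there were 21 lower and 1 higher, where all loci gave 12.2% and 12.4%. The arrays of the groups did not overlap for 22 lower and 2 higher loci, against 15.1% and 14.3% of all loci. The median difference was -0.36 over the replication-dependent genes and -0.18 over the variant genes, beside -0.01 over all loci. The count of 15 ranged from 2 to 15 when 1 array was left out, with 4, 2 and 3 members without WT replicates 1, 2 and 3, and it was 6 when only the shr-5 and WT arrays were fitted. Calls fell over the whole array as well. Of all 20777 loci, 787 were lower in the main fit and 382, 271 and 326 without WT replicates 1, 2 and 3. With only the shr-5 and WT arrays 358 were lower. In bulk tissue fewer cycling cells and less transcript per cell cannot be told apart.

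In scr-3 against WT 1 of 37 loci passed, the H2A.Z gene HTA11, which fell, against a background of 0.13% lower and 0.236% higher calls. No replication-dependent gene passed adjustment in limma, while 14 of 16 were lower at an unadjusted p under 0.05. Over all 37 members that unadjusted count was 23 lower and 0 higher, where all loci gave 5.71% lower and 5.28% higher. The scr-3 arrays lay entirely below the WT arrays for 27 members, among them all 16 replication-dependent genes, and entirely above for 3, against 10.6% and 11.5% of all loci. The median difference was -0.28 for the replication-dependent genes and -0.21 for the variant genes, beside 0.00 over all loci. Without shr-5 replicate 3, which enters this comparison only through the shared estimate of the spread, 9 members passed in scr-3, all lower, where 1.31% of all loci were lower and 1.55% higher in the same fit. Both comparisons use the same 3 WT arrays and are therefore not independent of each other.

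**Figure D1:**
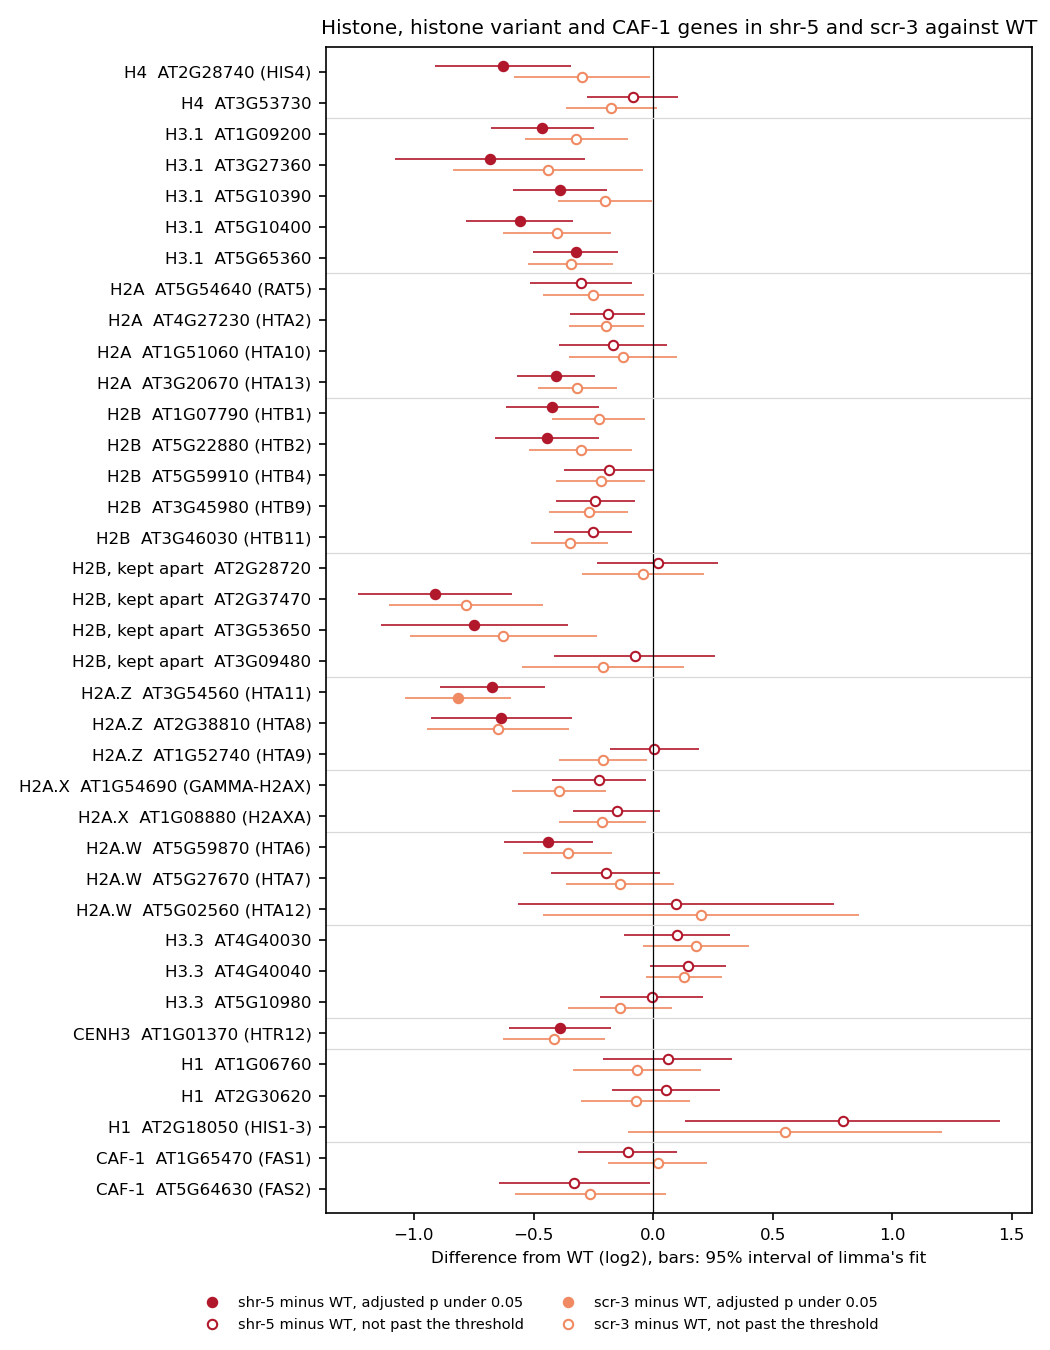
Difference from WT (log2) of each of the 37 loci, grouped by class, for shr-5 (upper point of each pair) and scr-3 (lower point), with 95% intervals of limma's fit as bars; filled points passed an adjusted p of 0.05. The H3.1 genes lie left of 0 in both mutants, the intervals of the H3.3 and H1 genes cross 0 or, for HIS1-3 in shr-5, lie right of it, and HTA11 is the 1 filled scr-3 point.

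The 2 measured genes of H4, the partner of H3 in the nucleosome core, differed from each other. HIS4 (AT2G28740) had values of 8.30, 8.57 and 8.04 in shr-5 and 8.61, 8.56 and 8.73 in scr-3, against 8.89, 9.01 and 8.89 in WT. All mutant arrays lay below all WT arrays, and the lowest was shr-5 replicate 3. HIS4 fell by 0.63 in shr-5 (SE 0.13, limma adjusted p = 0.0196), a level 1.54-fold lower than in WT, and its scr-3 difference was -0.30 (limma adjusted p = 0.430). The other H4 gene, AT3G53730, had 10.30, 10.34 and 10.55 in shr-5 and 10.33, 10.35 and 10.25 in scr-3, against 10.48, 10.55 and 10.42 in WT. Its shr-5 arrays overlapped WT, with a difference of -0.09 (95% interval -0.28 to 0.11, limma adjusted p = 0.584).

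All 5 genes of H3.1, the H3 form placed during replication, fell in shr-5, where 3.79% of all loci were lower. AT5G10400 had 8.70, 8.85 and 8.50 in shr-5 and 8.80, 8.86 and 8.86 in scr-3, against 9.11, 9.30 and 9.31 in WT. AT3G27360 had 8.52, 8.74 and 7.99 in shr-5 and 8.53, 8.59 and 8.87 in scr-3, against 9.02, 9.10 and 9.18 in WT. AT1G09200 had 10.17, 10.32 and 10.08 in shr-5 and 10.15, 10.42 and 10.42 in scr-3, against 10.69, 10.65 and 10.62 in WT. In all 3 genes the mutant arrays lay below WT, and shr-5 replicate 3 gave the lowest value. The groups were apart in the remaining pair of genes as well. AT5G10390, the direct neighbour of AT5G10400 among protein-coding genes, had 8.58, 8.66 and 8.43 in shr-5 and 8.64, 8.73 and 8.85 in scr-3, against 9.01, 8.90 and 8.92 in WT. AT5G65360 had 10.25, 10.36 and 10.24 in shr-5 and 10.15, 10.28 and 10.36 in scr-3, against 10.66, 10.62 and 10.54 in WT. The falls in shr-5 ranged from 0.68 for AT3G27360 (SE 0.18, limma adjusted p = 0.0475) and 0.56 for AT5G10400 (SE 0.10, adjusted p = 0.0122) to 0.32 for AT5G65360 (SE 0.08, adjusted p = 0.0394). AT1G09200 fell by 0.46 (adjusted p = 0.0216) and AT5G10390 by 0.39 (adjusted p = 0.0286). In scr-3 the 5 differences lay between -0.44 and -0.20, all with an unadjusted p under 0.05, beside 5.71% of all loci lower. None passed adjustment in limma, with adjusted p of 0.125 for AT5G65360 and 0.153 for AT5G10400. Without shr-5 replicate 3 AT5G10400 also passed in scr-3 (adjusted p = 0.0334). These genes encode near-identical proteins, and whether the array probes separate their transcripts was not tested.

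Of the calls above in shr-5, that of AT5G10400 did not hold when WT replicate 2 or WT replicate 3 was left out (largest adjusted p 0.0566), and those of HIS4 and AT1G09200 without any 1 of the WT arrays (up to 0.0813 and 0.0764). AT5G10390 lost its call without any WT array, scr-3 replicate 2 or shr-5 replicate 1 (up to 0.0928). AT5G65360 lost it without any WT or shr-5 array or scr-3 replicate 2 (up to 0.122, and 0.0574 without shr-5 replicate 3). AT3G27360 lost it without any array other than shr-5 replicate 2 or 3 (up to 0.147), and without shr-5 replicate 3 its difference was -0.47 (adjusted p = 0.0306).

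Replication-dependent H2A and H2B, which form the dimers flanking the H3-H4 core, had 3 of 9 genes past the threshold in shr-5 and 0 in scr-3. In shr-5 3.79% of all loci were lower past that threshold. At an unadjusted p under 0.05 (limma) 8 of the 9 were lower in scr-3, beside 5.71% of all loci. HTA13 (AT3G20670), an H2A gene, had 9.94, 10.01 and 10.03 in shr-5 and 10.04, 10.12 and 10.09 in scr-3, against 10.29, 10.44 and 10.47 in WT. It fell by 0.41 in shr-5 (SE 0.07, limma adjusted p = 0.0121), with no overlap between any mutant and WT array, and its scr-3 difference was -0.32 (adjusted p = 0.124). The other 3 H2A genes did not pass in shr-5. They were RAT5 (AT5G54640), also known for its part in transformation by Agrobacterium, at -0.30 (adjusted p = 0.0847), HTA2 (AT4G27230) at -0.19 and HTA10 (AT1G51060) at -0.17. HTA10 was the H2A gene whose shr-5 arrays overlapped WT, at 10.17, 10.32 and 9.92 in shr-5 against 10.29, 10.26 and 10.37 in WT.

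Among the 5 replication-dependent H2B genes, 2 fell in shr-5. HTB1 (AT1G07790) had 9.14, 9.14 and 8.88 in shr-5 and 9.25, 9.29 and 9.21 in scr-3, against 9.46, 9.54 and 9.43 in WT. HTB2 (AT5G22880) had 8.35, 8.50 and 8.29 in shr-5 and 8.44, 8.42 and 8.71 in scr-3, against 8.85, 8.77 and 8.86 in WT. Both were lower on every mutant array, by 0.42 for HTB1 (SE 0.09, limma adjusted p = 0.0207) and by 0.44 for HTB2 (SE 0.10, adjusted p = 0.0254) in shr-5. HTB4 (AT5G59910), HTB9 (AT3G45980) and HTB11 (AT3G46030) had shr-5 differences of -0.19, -0.24 and -0.25, also without overlap, and did not pass. For HTB11 the scr-3 value was -0.35 (adjusted p = 0.0915, and 0.0426 without shr-5 replicate 3), with arrays at 9.22, 9.10 and 9.10 in scr-3 against 9.58, 9.44 and 9.45 in WT. The call of HTA13 in shr-5 did not hold when WT replicate 2 or WT replicate 3 was left out (largest adjusted p 0.0552), that of HTB1 without any 1 WT array (up to 0.0837), and that of HTB2 without any WT array or shr-5 replicate 1 (up to 0.0889).

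The 4 H2B genes kept apart from that set fell into unlike pairs. AT2G37470 had 6.87, 7.14 and 6.58 in shr-5 and 6.80, 7.09 and 7.08 in scr-3, against 7.83, 7.81 and 7.68 in WT, and AT3G53650 had 4.85, 4.87 and 4.16 in shr-5 and 4.87, 4.63 and 4.74 in scr-3, against 5.43, 5.34 and 5.34 in WT. Every mutant array of both genes lay below every WT array. AT2G37470 fell by 0.91 in shr-5 (SE 0.14, limma adjusted p = 0.00704), a level 1.88-fold lower than in WT and the largest difference among the 37 members, and it kept that call in all 9 fits that left out 1 array. In scr-3 its difference was -0.78 (adjusted p = 0.0649, and 0.00590 without shr-5 replicate 3). AT3G53650 fell by 0.75 in shr-5 (SE 0.17, adjusted p = 0.0326), by 0.52 without shr-5 replicate 3 (adjusted p = 0.00604), and was at -0.63 in scr-3 (adjusted p = 0.194, and 0.00393 without that array). Its call in shr-5 was lost without any WT array or scr-3 replicate 2 or 3 (up to 0.0981), and its values are among the lower 40% of loci. AT2G28720 and AT3G09480 were at 0.02 and -0.08 in shr-5 and at -0.04 and -0.21 in scr-3, with arrays that overlapped WT.

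**Figure D2:**
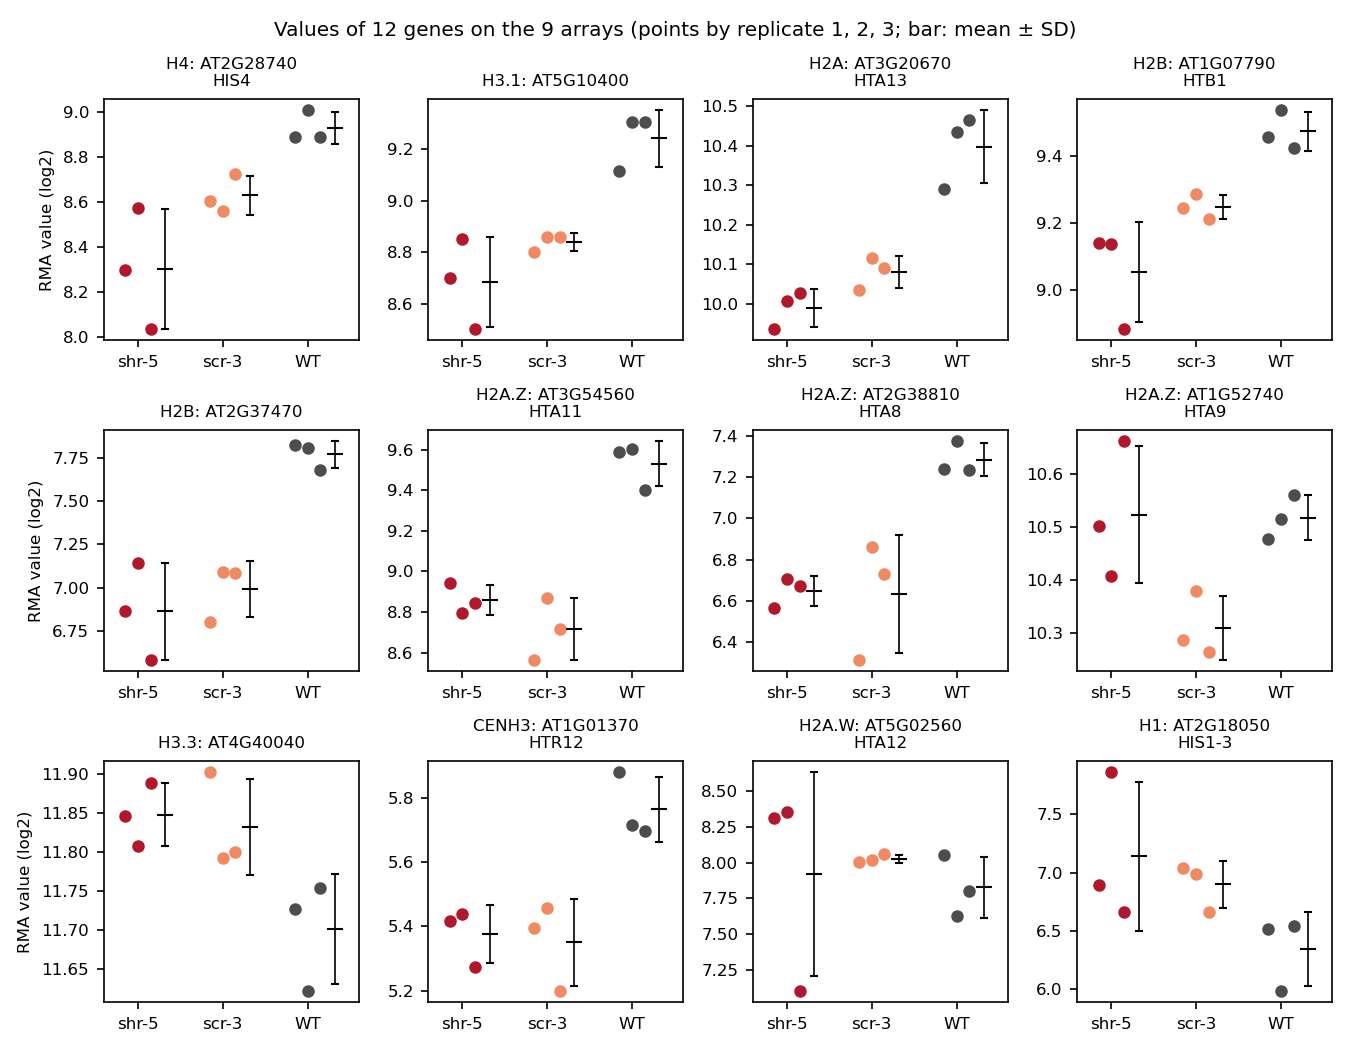
RMA value (log2) of 12 genes on each array, by group, with points for replicates 1 to 3 from left to right and the mean ± SD beside them; the vertical axes differ between panels and do not start at 0. HIS4, AT5G10400, HTA13, HTB1, AT2G37470, HTA11, HTA8 and HTR12 lie lower on all mutant arrays than on all WT arrays, while HTA12 and HIS1-3 have 1 shr-5 array apart from the others.

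Among the variants, genes of H2A.Z, which the SWR1 complex exchanges into nucleosomes, had 2 of 3 members past the threshold in shr-5 and 1 in scr-3. Among all loci 3.79% were lower in shr-5 and 0.13% in scr-3. HTA11 (AT3G54560) had 8.94, 8.80 and 8.84 in shr-5 and 8.56, 8.87 and 8.71 in scr-3, against 9.59, 9.60 and 9.40 in WT. It fell by 0.67 in shr-5 (SE 0.10, limma adjusted p = 0.00530), a level 1.59-fold lower than in WT, and by 0.82 in scr-3 (SE 0.10, adjusted p = 0.0124), a level 1.76-fold lower. All mutant arrays lay below all WT arrays. HTA11 was past the threshold in both mutants, and its shr-5 call stood in all 9 fits that left out 1 array, while its scr-3 call did not hold when WT replicate 1, WT replicate 2 or scr-3 replicate 3 was left out (up to 0.0744). HTA8 (AT2G38810) had 6.57, 6.71 and 6.67 in shr-5 and 6.31, 6.86 and 6.73 in scr-3, against 7.24, 7.37 and 7.24 in WT. It fell by 0.63 in shr-5 (SE 0.13, adjusted p = 0.0221) and was at -0.65 in scr-3 (adjusted p = 0.0862, and 0.0332 without shr-5 replicate 3). The shr-5 call of HTA8 was lost without any WT array or shr-5 replicate 2 (up to 0.0886).

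HTA9 (AT1G52740), the third H2A.Z gene, did not share this pattern in shr-5. Its values were 10.50, 10.41 and 10.66 in shr-5 and 10.29, 10.38 and 10.26 in scr-3, against 10.48, 10.52 and 10.56 in WT. The shr-5 arrays spanned the WT range, with a difference of 0.01 (95% interval -0.18 to 0.19), whereas the scr-3 arrays all lay below it at -0.21 (limma adjusted p = 0.376). Between the mutants HTA9 differed by 0.21 (95% interval 0.03 to 0.40, limma adjusted p = 0.232), which did not pass.

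H2A.X genes, whose products are phosphorylated at DNA breaks, did not pass in either mutant. AT1G54690 (HTA3 among its names) was at -0.23 in shr-5 (limma adjusted p = 0.146) and -0.40 in scr-3 (adjusted p = 0.110, and 0.0315 without shr-5 replicate 3). AT1G08880 (HTA5 among its names) was at -0.15 and -0.21. Among the genes of heterochromatic H2A.W, HTA6 (AT5G59870) had 10.51, 10.61 and 10.35 in shr-5 and 10.53, 10.55 and 10.63 in scr-3, against 10.97, 10.95 and 10.86 in WT. HTA6 fell by 0.44 in shr-5 (SE 0.08, adjusted p = 0.0152), a call lost without WT replicate 1 or 2 (up to 0.0630), and was at -0.36 in scr-3 (adjusted p = 0.127, and 0.0323 without shr-5 replicate 3). HTA7 (AT5G27670) was at -0.20 in shr-5 and -0.14 in scr-3 and did not pass.

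HTA12 (AT5G02560), the remaining H2A.W gene, turned on 1 array. Its values were 8.31, 8.35 and 7.10 in shr-5 and 8.01, 8.02 and 8.06 in scr-3, against 8.05, 7.63 and 7.80 in WT, so shr-5 replicate 3 was the lowest of the 9 arrays and the other 2 shr-5 arrays the highest. The shr-5 difference was 0.10 (95% interval -0.57 to 0.76) with all arrays, and 0.51 without shr-5 replicate 3 (limma adjusted p = 0.0197). In the fit without that array 1543 of all 20777 loci were higher past the threshold, beside 904 with all arrays.

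H3.3 genes, which serve replication-independent exchange, did not pass in either mutant. AT4G40030 had 12.16, 12.41 and 12.04 in shr-5 and 12.28, 12.26 and 12.32 in scr-3, against 12.17, 12.03 and 12.12 in WT. Its direct neighbour AT4G40040 had 11.85, 11.81 and 11.89 in shr-5 and 11.90, 11.79 and 11.80 in scr-3, against 11.73, 11.62 and 11.75 in WT. AT5G10980 had 11.14, 11.06 and 11.42 in shr-5 and 11.07, 11.03 and 11.12 in scr-3, against 11.19, 11.25 and 11.20 in WT. Only AT4G40040 was higher than WT on all 6 mutant arrays. The shr-5 differences were 0.10 (95% interval -0.12 to 0.32), 0.15 (-0.01 to 0.31) and -0.01 (-0.22 to 0.21) for AT4G40030, AT4G40040 and AT5G10980, and their limma adjusted p were 0.582, 0.237 and 0.977. In scr-3 the values were 0.18 (-0.04 to 0.40), 0.13 (-0.03 to 0.29) and -0.14 (-0.35 to 0.08). Set against each other on each array as medians relative to the WT mean, H3.1 minus H3.3 was -0.53, -0.45 and -0.76 in shr-5 and -0.63, -0.42 and -0.34 in scr-3, against 0.01, 0.08 and -0.04 in WT. The mutant arrays all lay below the WT arrays in this difference, which is given as a description without a test.

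The centromeric variant gene HTR12 (CENH3, AT1G01370) had 5.42, 5.44 and 5.27 in shr-5 and 5.40, 5.46 and 5.20 in scr-3, against 5.88, 5.72 and 5.70 in WT. It fell by 0.39 in shr-5 (SE 0.09, limma adjusted p = 0.0378) and was at -0.41 in scr-3 (adjusted p = 0.120, and 0.0430 without shr-5 replicate 3), with no mutant array inside the WT range. The shr-5 call of HTR12 was lost in 8 of the 9 fits that left out 1 array, all but that without scr-3 replicate 3 (up to 0.117, and 0.0559 without shr-5 replicate 3), and its values are among the lower 40% of loci.

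None of the 3 linker histone genes passed in either mutant with all arrays in the fit. AT1G06760 and AT2G30620, which encode the main H1 proteins, were at 0.06 and 0.05 in shr-5 and -0.07 and -0.07 in scr-3. HIS1-3 (AT2G18050), a divergent H1 gene known for induction by drought, had 6.89, 7.86 and 6.66 in shr-5 and 7.04, 6.99 and 6.66 in scr-3, against 6.52, 5.98 and 6.54 in WT. All mutant arrays were above WT, and shr-5 replicate 2 was highest. The differences of 0.79 in shr-5 (SE 0.29, limma adjusted p = 0.133) and 0.55 in scr-3 (adjusted p = 0.549) did not pass, and without shr-5 replicate 3 the shr-5 value was 1.03 (adjusted p = 0.0352). That last fit had 1543 of all 20777 loci higher past the threshold.

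Of the CAF-1 subunit genes, FAS1 (AT1G65470) had 5.38, 5.20 and 5.16 in shr-5 and 5.37, 5.45 and 5.30 in scr-3, against 5.23, 5.46 and 5.37 in WT. FAS2 (AT5G64630) had 5.91, 6.38 and 6.13 in shr-5 and 5.97, 6.32 and 6.34 in scr-3, against 6.54, 6.36 and 6.52 in WT. FAS1 overlapped WT in both mutants, and FAS2 overlapped it in shr-5. Their shr-5 differences were -0.11 (95% interval -0.31 to 0.10) and -0.33 (-0.65 to -0.01, limma adjusted p = 0.187). The shared subunit gene MSI1 (AT5G58230) was at 0.04 in shr-5 and 0.02 in scr-3.

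On single arrays, the median over replication-dependent genes, relative to the WT mean, was -0.36, -0.28 and -0.38 on the shr-5 arrays and -0.31, -0.26 and -0.24 on the scr-3 arrays, against 0.02, 0.00 and -0.03 on the WT arrays. For the variant genes it was -0.16, -0.21 and -0.17 in shr-5 and -0.26, -0.18 and -0.23 in scr-3, against 0.05, -0.01 and -0.04 in WT. The replication-dependent median minus the variant median was -0.21, -0.07 and -0.21 in shr-5 and -0.05, -0.08 and -0.01 in scr-3, against -0.03, 0.01 and 0.01 in WT. The gap between the sets was widest on shr-5 replicates 1 and 3.

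**Figure D3:**
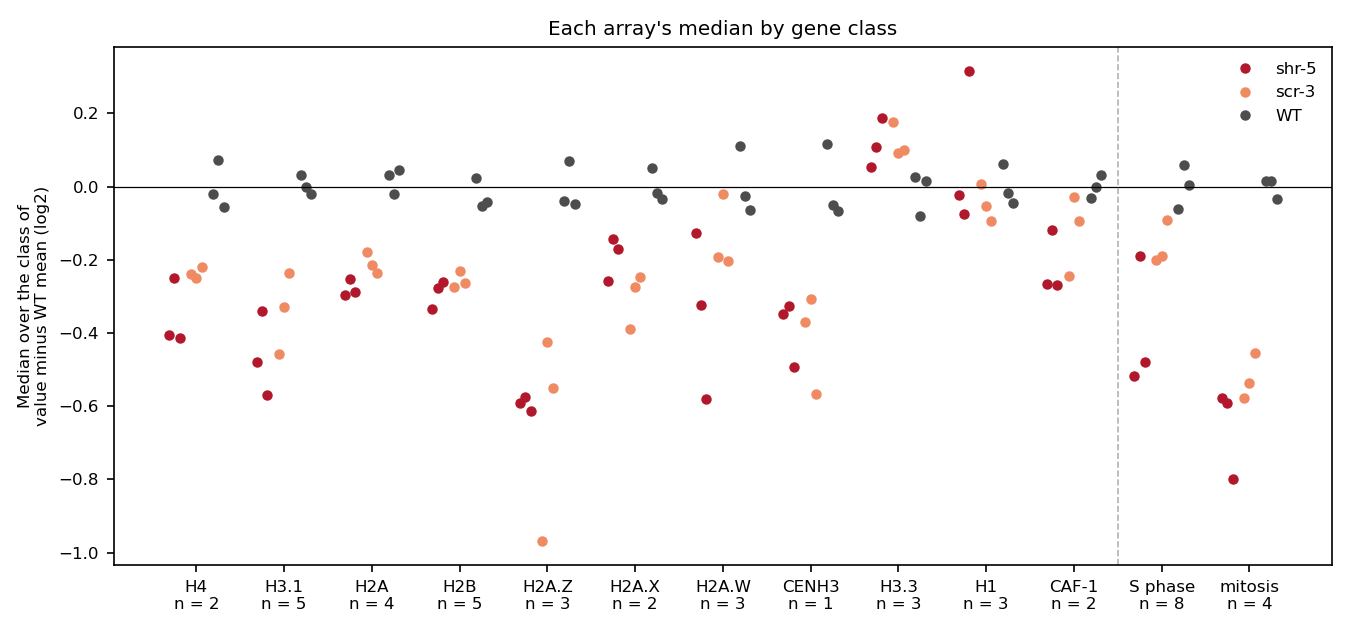
Each array's median, over the measured genes of a class, of the value minus the WT mean (log2), with shr-5, scr-3 and WT from left to right in each class; the dashed line sets apart 8 S-phase and 4 mitosis genes that are no histone genes. The H3.1 medians run from -0.57 to -0.34 in shr-5 and -0.46 to -0.24 in scr-3, below all WT arrays, while the H3.3 medians run from 0.05 to 0.19 in shr-5 and 0.09 to 0.18 in scr-3.

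Directly compared, shr-5 and scr-3 did not differ in any of the 37 members past adjustment in limma, against a background of 0.578% lower and 0.765% higher calls. At an unadjusted p under 0.05 HIS4 (-0.33, limma adjusted p = 0.234) and HTB1 (-0.20, adjusted p = 0.298) were lower in shr-5 and HTA9 was higher, where all loci gave 8.24% lower and 8.45% higher. The members' shares thus lay below those of all loci. Without shr-5 replicate 3 the differences were -0.20 for HIS4 (adjusted p = 0.350), -0.11 for HTB1 (0.496) and 0.14 for HTA9 (0.375). The median of replication-dependent genes was -0.07 and that of variant genes 0.02, beside -0.01 over all loci. The 95% intervals of HIS4 (-0.61 to -0.04) and HTA11 (-0.08 to 0.37) show how far the mutants could still differ.

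In the list of chaperones, exchange complexes and histone-modifying factors, 1 of 22 measured genes passed in shr-5 and 0 in scr-3 (limma). At an unadjusted p under 0.05, 4 were lower and 0 higher in shr-5, and 2 lower and 2 higher in scr-3. The single lower call in shr-5 is a share near that of all loci (3.79%). The unadjusted counts compare with 12.2% lower and 12.4% higher of all loci in shr-5, and with 5.71% and 5.28% in scr-3. The gene that passed was ATXR6 (AT5G24330), a methyltransferase that acts on H3.1 in replicating cells, at 5.29, 5.38 and 5.19 in shr-5 and 5.45, 5.19 and 5.78 in scr-3, against 5.93, 5.91 and 5.80 in WT. ATXR6 fell by 0.60 in shr-5 (SE 0.14, limma adjusted p = 0.0315) and was at -0.41 in scr-3 (adjusted p = 0.285). Its call was lost without any WT array, scr-3 replicate 1 or shr-5 replicate 1 or 2 (up to 0.107), and its values are among the lower 40% of loci. ASF1B (AT5G38110), a chaperone of new H3-H4, was at -0.35 in shr-5 (adjusted p = 0.0597, and 0.0244 without shr-5 replicate 3) and -0.32 in scr-3. The H3.3 chaperone gene HIRA was at 0.16 in shr-5 and 0.24 in scr-3. PIE1, the SWR1 ATPase gene for H2A.Z exchange, was at 0.19 and 0.33, the highest difference of the list in scr-3. Of 8 further histone loci, mostly at low values, 0 passed in limma in shr-5 or scr-3, and 0 were past an unadjusted p of 0.05. Their differences ran from -0.16 (AT1G08170) to 0.05 (AT5G65350) in shr-5 and from -0.12 (AT5G02570) to 0.09 (AT5G65350) in scr-3.

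Cell-cycle genes listed beside the members also fell in shr-5. They were chosen with earlier results of these data known, so their counts are descriptions. All 4 mitosis genes, CYCB1;1 (0.72), the syntaxin gene SYP111 (0.62), the kinase gene CDKB2;1 (0.50) and the Aurora kinase gene AUR2 (0.70), fell by the amounts given in shr-5, with limma adjusted p between 0.00360 and 0.0214. Of the 8 S-phase genes 3 fell in shr-5. These were the licensing gene CDC6 (by 0.60), the sliding clamp gene PCNA2 (0.47) and the helicase gene PRL (MCM7, 0.41). Among all loci 3.79% were lower past the same threshold in shr-5. In scr-3 0 of these 12 passed in limma, and 5 were lower at an unadjusted p under 0.05, beside 5.71% of all loci. The scr-3 differences ran from -0.57 (AUR2) to -0.45 (CYCB1;1) among the mitosis genes and from -0.36 (PCNA1) to 0.01 (MCM2) among the S-phase genes. Without shr-5 replicate 3 all 4 mitosis genes passed in scr-3 (limma adjusted p between 0.00730 and 0.0267). In the same fit 1.31% of all loci were lower. The S-phase median relative to WT was -0.52, -0.19 and -0.48 on the shr-5 arrays and -0.20, -0.19 and -0.09 on the scr-3 arrays, against -0.06, 0.06 and 0.00 in WT, so shr-5 replicates 1 and 3 were again lowest. Calls of CYCB1;1, SYP111 and CDKB2;1 stood in all 9 fits that left out 1 array, and that of AUR2 was lost without any 1 WT array (up to 0.0816). That of CDC6 did not hold when WT replicate 2, WT replicate 3 or shr-5 replicate 2 was left out (up to 0.0705), and PCNA2 and PRL passed only in the fit without shr-5 replicate 2 (up to 0.149 and 0.159 otherwise, and 0.0695 and 0.0714 without shr-5 replicate 3). Between the mutants CDC6 was at -0.42 in shr-5 against scr-3 (limma adjusted p = 0.115), and without shr-5 replicate 3 at -0.52 (adjusted p = 0.0268). The CDC6 values are among the lower 40% of loci.

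In shr-5 2 of 4 meristem markers, 1 of 8 root markers and 0 of 3 flower markers passed the threshold. Those that passed were all higher, where 4.35% of all loci were higher. The meristem genes KNAT1 and STM rose in shr-5 by 1.26 (limma adjusted p = 0.00251) and 0.79 (adjusted p = 0.0121), while WUS and CLV3 did not pass. PYK10 rose by 0.84 in shr-5 (adjusted p = 0.000764) as the 1 of 8 root markers that passed, and CA1 was at -0.30 (adjusted p = 0.0816). In scr-3 KNAT1 was at 0.52, STM at 0.24 and PYK10 at 0.30, none past adjustment. On the linear scale the summed meristem markers were 210 to 260 in shr-5 and 152 to 172 in scr-3, against 122 to 145 in WT. The log2 means of WUS (3.66 in shr-5, 3.80 in scr-3, 3.74 in WT) and CLV3 (4.24, 4.29 and 4.21) hardly differed. STM and KNAT1 thus carried the rise of the meristem sum. The summed root markers were 3340 to 3554 in shr-5 and 2276 to 2646 in scr-3, against 1939 to 2138 in WT. PYK10 carried most of the root sum, and the other 7 root markers summed to 244 to 280 in shr-5 and 237 to 283 in scr-3, against 268 to 276 in WT, with overlapping groups. Their part in the histone differences was not tested.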

How the data were processed

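Transcripts were measured on 9 ATH1 arrays. The authors deposited log2 values made with RMA, per the submitters' processing notes. Its version and the probe mapping were not given in the sources used here. Groups and repeat numbers come from the sample titles, and no array was identical to another. With R 4.3.3 and limma 3.58.1, 1 linear model with a mean per genotype was fitted to all 20777 loci and 9 arrays (lmFit and eBayes, 6 residual and 2.99 prior degrees of freedom). P-values are two-sided and adjusted after Benjamini and Hochberg over all loci, with a threshold of 0.05; errors are limma's standard errors and 95% intervals. No filter was applied. Alternatives were fits of only the arrays compared, a replicate block, a common array median, a filter on dim loci, a trended robust prior, and leaving out each array. The number of arrays limits the precision. The procedure was tested on simulated data. These had independent normal noise with the same spread of a locus on all arrays, so they do not cover an outlying array such as shr-5 replicate 3.

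Members, classes and gene lists were chosen with earlier results of these data known, so the counts and medians of the members and of the other lists are descriptions. The rule for named genes takes all members and, of the other lists, the loci that passed or, where none did, the lowest and highest difference; ASF1B, HIRA, MSI1 and the markers that did not pass were added after their values were seen. Symbols come from a gene table of TAIR10.1, which matched 20508 loci. Its coordinates were used only to find neighbouring members, and no sequences are used here. The main fit used no pairing, and the labels state none. Between arrays of equal repeat number, deviations from the group means correlated at 0.277, 0.138 and 0.107 in scr-3 against WT. The values were 0.204, -0.106 and 0.0994 in shr-5 against WT, and 0.444, -0.0448 and 0.335 in shr-5 against scr-3. Whether equal repeat numbers share a batch is therefore unknown, and the replicate block is given as an alternative.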

Additional observations from a re-analysis of the deposited data

How the results depend on the processing

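The 37 members' calls were recomputed with only the arrays compared, with the replicate number as a block, with a common array median, without the lower 40% of loci (which drops 4 members), with an intensity trend and robust prior, and without each array. In shr-5 against WT the main 15 lower calls became 12 with the replicate block, 18 with the common median, 13 without dim loci and 14 with the trend. The 13 were all among the 15, as the filter on dim loci had dropped the called AT3G53650 and HTR12. The members' calls became 6 with only the WT and shr-5 arrays. Over all loci 787 were lower in the main fit, 817 with the block and 1279 with the common median. The lower loci were 760 of 12467 without dim loci, 793 with the trend and 358 with only the arrays compared. Fitting only the arrays compared leaves fewer residual degrees of freedom, yet in scr-3 against WT it raised the count from 1 to 7. The differences are the same in such a fit, and only the estimate of the spread and its degrees of freedom change. How much each of these moved the counts was not tested. Without 1 array the count ran from 2 (without WT replicate 2) to 15, with 4 without WT replicate 1, 3 without WT replicate 3 and 13 lower and 2 higher without shr-5 replicate 3. Of all 20777 loci 382, 271 and 326 were lower without WT replicates 1, 2 and 3. Without shr-5 replicate 3, 1100 of them were lower and 1543 higher. AT2G37470 and HTA11 kept their calls in all 9 of these fits, and the other 13 lost theirs in 2 to 8. With the replicate block AT3G27360 (limma adjusted p = 0.0714), AT5G10390 (0.0528) and AT5G65360 (0.0622) no longer passed. The labels do not say whether the repeat numbers pair these samples. With only the arrays compared, the calls kept were 6 of the 15.

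In scr-3 against WT the 1 call became 7 with only the arrays compared, 9 without shr-5 replicate 3, 2 without shr-5 replicate 2 and 0 without WT replicate 1 or 2 or scr-3 replicate 3, a range of 0 to 9; the replicate block left it at 1 (HTA11, adjusted p = 0.0368) and changed no other call of a member. In shr-5 against scr-3 the count was 0 in all settings run. Over all loci the count was 76 in scr-3 against WT (577 with only the arrays compared, 17 to 595 without 1 array), 1691 in shr-5 against WT (807, and 654 to 2643) and 279 in shr-5 against scr-3 (24, and 33 to 610). The common median changed the split of calls in shr-5 to 1279 lower and 687 higher, beside 787 and 904 as deposited.

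The replication-dependent medians ranged without 1 array from -0.39 to -0.33 in shr-5 and from -0.30 to -0.25 in scr-3 against WT, and the variant medians from -0.20 to -0.13 and from -0.24 to -0.19. With the common median the variant median in shr-5 against WT was -0.24, and that in shr-5 against scr-3 turned to -0.022, beside 0.021 as deposited (0.013 to 0.077 without 1 array); a common shift of each array moves every difference alike. No detection calls were used, so how far dim members such as HTR12 lie above background is unknown.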
